A study of Mus musculus with 10 samples.

Results

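Integrins are cell surface receptors made of 1 α and 1 β subunit, and laminins are basement membrane proteins made of an α, a β and a γ chain. The 36 mouse genes measured here, 26 integrin and 10 laminin genes of 19937 genes in all, were chosen by symbol (*Itga*, *Itgb*, *Lama*, *Lamb* and *Lamc* genes with 1 symbol per probe set). This rule uses no measured value, but it was set with earlier results of these data known. Integrin *Itgb1*, the β subunit of most receptors for laminin, collagen and fibronectin, showed the largest decrease of these genes in sacral neural crest-derived progenitors (NCPs) relative to total embryo. Where several probe sets were annotated to a gene alone (37 for the 36 genes), the brightest by its mean of 10 arrays was taken.

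The NCPs were *Sox10*-H2BVenus+ cells, sorted by fluorescence from transgenic fetuses at E13 and hybridized to 3 Affymetrix mouse Gene 1.0 ST arrays. The reference was total embryo RNA on 7 arrays, for which the labels give neither stage nor genotype. The transgene places a nuclear Venus protein under *Sox10* regulatory sequence, and early neurons that arise from these cells keep its fluorescence for a time, so the sorted cells can include them. Per the methods, tissue of several fetuses was pooled for each sample, and the background strain is not given in the sources used here. The labels name sub-dissected lower urogenital tract and a one-cycle labelling kit, while the methods name dissociated pelvic ganglia and NuGEN amplification.

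The integrin β1 subunit pairs with many α subunits, whereas αv pairs with several β subunits and the β2 and β7 subunits are found mainly on leukocytes. Ligand-bound integrins recruit talin, kindlin and the ILK-PINCH-parvin complex, which link them to actin. In the neural crest, these receptors are known for roles in migration along matrix rich in fibronectin and laminin, and laminins of the Schwann cell basement membrane later guide ensheathment of axons.

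The study compared NCPs with total embryo, and the arrays differed in more than cell type. The standard deviation over all probe sets tested was 0.97 to 1.13 on the NCP arrays, with NCP array 2 the lowest, and 1.78 to 1.91 on the total embryo arrays, and the median change ran from 1.86 in the lowest of 10 groups of genes by total embryo level to −2.24 in the highest. The names of the total embryo arrays carry 2 codes, called RNA samples A (3 arrays) and E (4 arrays) here. In the name of total embryo array 6 the code lacks 1 digit and was read as E. The code of A begins like those of the NCP arrays, and that of E does not. The labels do not say whether a code marks repeat hybridizations of 1 RNA, so p-values measure a spread between arrays that may be in part technical. The names of all 3 NCP arrays and of 1 total embryo array end in the same number, read here as the day of the array. *Sox10* was higher in NCPs and above the floor described next on all 3 NCP arrays (7.95, 7.14 and 7.60, against 6.38, 6.59 and 6.65 as lowest, median and highest in total embryo). Of the 8 neural crest and Schwann precursor markers measured, *Sox10*, *Foxd3* and *Cdh19* were higher and *Fabp7*, *Erbb3* and *Ednrb* lower. After the level adjustment described below, *Sox10* and *Foxd3* stayed higher and *Fabp7* and *Erbb3* lower by limma. The level-adjusted changes of *Cdh19* (0.31) and *Ednrb* (0.29) did not pass. *Erbb3*, the neuregulin receptor of Schwann cell precursors, was at 5.39, 5.20 and 5.62, against a median of 6.50. Of the other markers called before level adjustment, *Foxd3* and *Ednrb* were above the floor on 1 NCP array each, *Fabp7* on 2, and *Cdh19* and *Erbb3* on 0.

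A floor was set on each array at the 95th percentile of 1178 receptor genes of the nose (olfactory and vomeronasal), most of which are silent in other tissues. None of the 36 genes exceeded it on all 3 NCP arrays, whereas 28 exceeded it on all 7 total embryo arrays. Over all genes, 1095 of 19937 (5.49%) exceeded the floor on all 3 NCP arrays and 12575 (63.1%) did so on all 7 total embryo arrays. Single NCP arrays held 7, 2 and 4 of the 36 genes above their floor, against 28 to 31 on the total embryo arrays. NCP array 2 also separated bright from silent genes least, as judged by the gap between the medians of 7 housekeeping genes and of these receptor genes. That gap was 3.46, 0.71 and 4.21 log2 units for NCP arrays 1, 2 and 3, against 6.74 to 7.45 in total embryo. The 3 NCP arrays were therefore not alike in this respect. Without NCP array 2, *Itga2b* and *Itgb4* passed, at 7.20 and 6.98 and at 7.28 and 7.10, as did 12% of all genes, and without NCP array 3 *Itga11* passed, as did 7.37% of all genes. With the floor at the 90th percentile *Lamb1* passed (10.5% of all genes), and at the 75th percentile *Lamb1*, *Itgad*, *Itgb5* and *Lamc3* did (29.6% of all genes), 2 settings chosen after the values were seen. By this measure none of the 36 transcripts could be told from background on all 3 NCP arrays, and a decrease is limited in size by background.

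**Figure D1:**
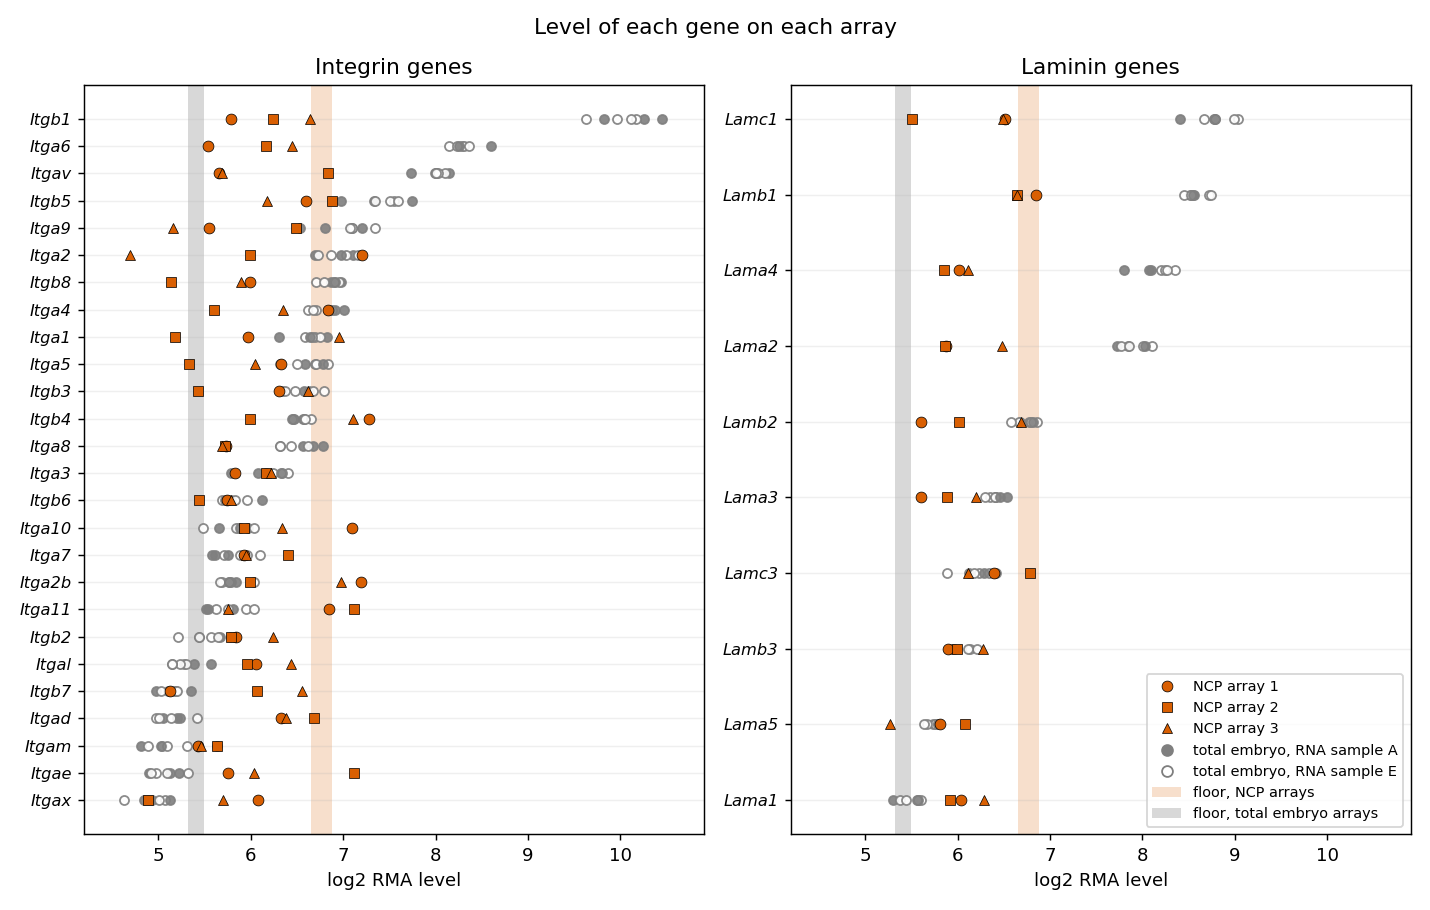
Log2 RMA level of each integrin gene (left) and laminin gene (right) on each array, with genes ordered by their mean in total embryo, 3 NCP arrays in orange (circle, square and triangle for arrays 1, 2 and 3) and 7 total embryo arrays in grey (filled for RNA sample A, open for E). Shaded bands span the floors of the 3 NCP arrays (orange) and 7 total embryo arrays (grey). Most NCP points lie between 5 and 7, while the total embryo points reach 10.45 for *Itgb1*.

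Promoter sequence is shown for the 3 integrin genes that were lowest relative to genes of similar level among those that passed the level-adjusted test described below. RefSeq (GRCm38.p6) gave the 250 bases before the transcription start for 23 of the 36 genes, in 26 windows. Capitals mark letters that match GGGCGG, known as the GC box, or the box motif CCAAT, or TATAAA, known as the TATA box. They also mark the SOX motifs AACAAAG or else AACAATG. Each motif was searched on both strands, and overlapping matches were allowed. Sequences run 5′ to 3′ on the strand of the gene.
Itgb1 (chr8:128685404-128685653, plus strand): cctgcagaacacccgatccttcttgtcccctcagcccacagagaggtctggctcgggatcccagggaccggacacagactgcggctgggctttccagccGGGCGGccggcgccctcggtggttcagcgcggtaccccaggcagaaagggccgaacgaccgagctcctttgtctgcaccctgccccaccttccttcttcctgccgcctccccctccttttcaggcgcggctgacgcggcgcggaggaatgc
Itgb8 (chr12:119238277-119238526, minus strand): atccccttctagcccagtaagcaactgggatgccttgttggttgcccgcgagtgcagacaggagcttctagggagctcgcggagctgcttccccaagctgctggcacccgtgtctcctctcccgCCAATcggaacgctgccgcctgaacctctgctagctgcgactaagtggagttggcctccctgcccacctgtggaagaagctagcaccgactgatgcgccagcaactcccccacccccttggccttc
Itga8 (chr2:12301945-12302194, minus strand): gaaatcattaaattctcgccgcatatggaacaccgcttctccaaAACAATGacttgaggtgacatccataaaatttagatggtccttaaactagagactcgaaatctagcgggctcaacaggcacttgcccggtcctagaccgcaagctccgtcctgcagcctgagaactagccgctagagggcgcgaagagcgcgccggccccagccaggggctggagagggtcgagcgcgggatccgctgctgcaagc
*Itgb1* held a GC box, *Itgb8* a CCAAT box and *Itga8* 1 SOX motif, so these windows shared none of the motifs searched. Of the 26 windows, 9 (34.62%) held a GC box, against 32.742% of all 32851 windows of that length. A CCAAT box was in 4 (15.38%, against 33.85%), a TATA box in 0 (against 12.368%), AACAAAG in 0 (against 5.029%) and AACAATG in 1 (3.85%, against 3.288%). A match describes these letters and not a bound site.

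In the comparison of NCPs with total embryo, 10 of the 36 genes were higher, 16 were lower and 10 did not pass an adjusted p of 0.05 (limma with Benjamini-Hochberg adjustment over 28192 probe sets). Over all probe sets, 39.6% were called higher and 27.5% lower. With 1 probe set per gene, as for the 36, 6932 of 19937 genes were higher and 6188 lower. The median log2 fold change was −0.31 for these genes, against 0.08 over all genes, and −0.17 without NCP array 2. Of the integrin genes 9 were higher and 10 lower (median −0.15), and of the laminin genes 1 was higher and 6 lower (median −0.58). The groups did not overlap for 16 genes, 4 with every NCP array above every total embryo array and 12 with every one below. This held for 31.8% and 21.5% of all probe sets, and for 5581 and 4908 of the 19937 genes. With arrays averaged per RNA sample, *Itgad* alone of the 10 higher genes passed (adjusted p = 0.016), and 8 of the 16 lower genes did, *Itgb1*, *Itgb8*, *Itga6*, *Itgav*, *Lama2*, *Lama4*, *Lamb1* and *Lamc1*. The increases of *Itgae* and *Itgal* then had adjusted p = 0.0724 and 0.0732, and those of *Itga2b* and *Lama1* 0.125 and 0.158. In these bulk samples fewer cells of a type and less RNA per cell cannot be told apart.

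Each change was also set against genes of similar level. The relative change is the log2 fold change minus the median of the 500 genes nearest in total embryo level, given as a description. For a test, the trend of each array's difference from total embryo on level was subtracted and limma run again. By this level-adjusted test 1 of the 36 genes was higher and 6 were lower, against 10.2% and 8.35% of all probe sets. The median level-adjusted change was −0.24, against −0.04 over all genes. The 6 lower genes were *Itgb1*, *Itgb8*, *Itga8*, *Itgb6*, *Lama4* and *Lamc1*, and the higher gene was *Itgad*. Without NCP array 3, 11 genes were lower and 2 higher, and without NCP array 2, 8 were lower and 2 higher. Calls over all 19937 genes rose as well without NCP array 2, from 1744 to 2572 lower and from 1630 to 2341 higher. Such counts are not given here for the fits without NCP array 1 or 3. Genes that also passed with an NCP array left out were *Itga2* and *Itga5* without array 1 (−1.02 and −0.65), *Itga6*, *Itga9*, *Itgav*, *Lama5* (−0.62), *Itga2b* and *Itgb4* (0.83) without array 2, and *Itga1* (−0.76), *Itga6*, *Lama2*, *Lama3* (−0.56), *Lamb2* (−0.54) and *Itga11* (0.82) without array 3. With arrays averaged per RNA sample, limma called 0 of the 36 genes after level adjustment (1 lower and 0 higher at an unadjusted p of 0.05) and 24 of all probe sets.

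**Figure D2:**
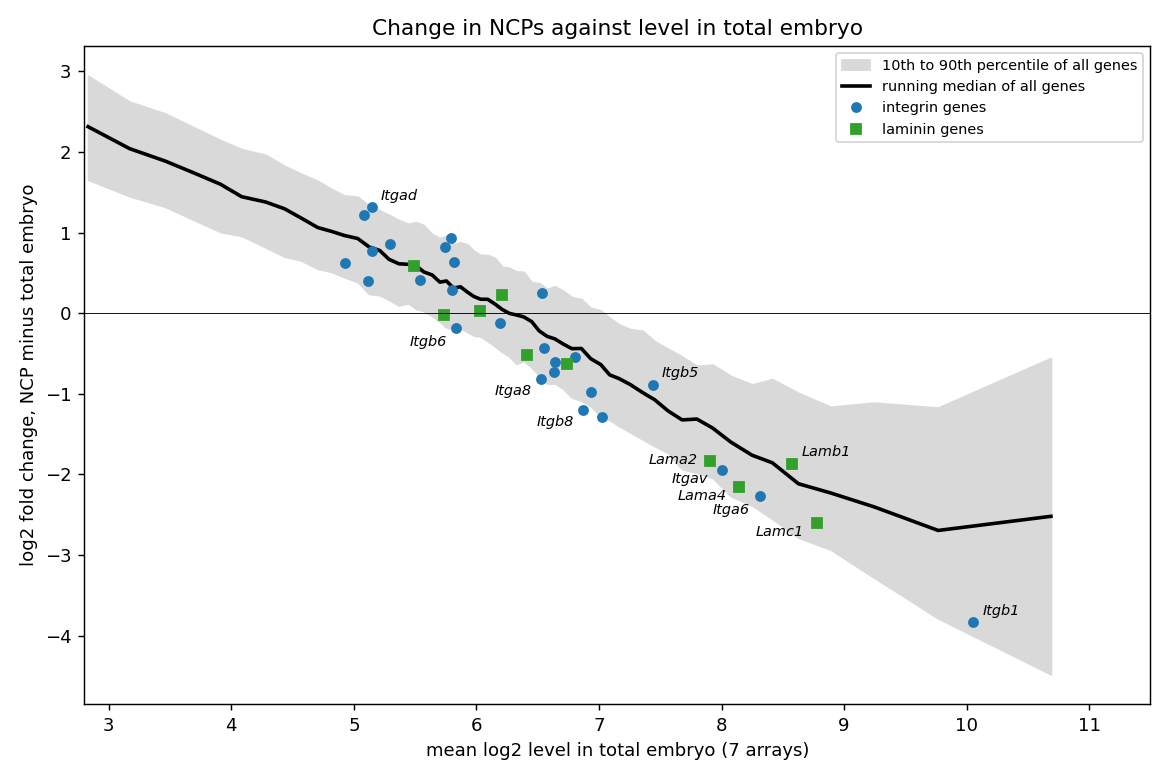
Log2 fold change (NCP minus total embryo) against mean log2 level in total embryo for integrin (blue circles) and laminin genes (green squares), with the running median of all genes (black line) and their 10th to 90th percentile (grey band). The changes of these genes follow the falling line, with *Itgb1* at −3.83 near the lower edge of the band and *Lamb1* at −1.86 slightly above the line.

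*Itgb1* had the highest level of the 36 genes in total embryo, 9.62, 10.11 and 10.45 as lowest, median and highest of 7 arrays. Its levels on the 3 NCP arrays were 5.79, 6.25 and 6.64, all below every total embryo array. This amounted to a log2 fold change of −3.83 with a standard error of 0.22 (adjusted p = 3.87e-08), and −4.23 (adjusted p = 0.0234) against the 1 total embryo array of the same day. On the NCP arrays *Itgb1* lay at percentile 66.6 to 94.6 of the receptor genes, so its signal there was within background. Its change was 1.15 log2 units below that of genes of similar level (relative change −1.15), at percentile 10.8 among its 500 neighbours. The level-adjusted change was −1.46 (95% interval −2.04 to −0.88, adjusted p = 0.00278), with adjusted p = 0.316 when arrays were averaged per RNA sample and 0.0924 against the total embryo arrays of RNA sample A. All 7 housekeeping genes measured were lower in NCPs by limma as well (median −1.59), and after level adjustment 2 were higher and 2 lower. Among the lower was *Sdha*, with a log2 fold change of −3.83 and a level-adjusted change of −1.51 (adjusted p = 0.000347), close to those of *Itgb1*.

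With *Itgb1* left aside, among subunits that pair with αv or bind the RGD motif of fibronectin and related ligands *Itgb8* stood lowest relative to level. *Itgb8*, which with αv activates latent TGF-β, measured 5.99, 5.14 and 5.90 on the NCP arrays and 6.71, 6.90 and 6.98 as lowest, median and highest in total embryo, so the groups did not overlap. Its log2 fold change was −1.19 (adjusted p = 0.000113), its relative change −0.74 and its level-adjusted change −0.70 (95% interval −1.08 to −0.31, adjusted p = 0.0176). *Itga8*, a receptor for nephronectin in the developing kidney, was nearly equal on the 3 NCP arrays (5.74, 5.72 and 5.69) and lay below the total embryo range of 6.31 to 6.78 (median 6.57). The log2 fold change of *Itga8* was −0.81 (adjusted p = 0.00055), and its level-adjusted change −0.62 (95% interval −0.97 to −0.28, adjusted p = 0.0163). Averaged per RNA sample, the level-adjusted calls of *Itgb8* and *Itga8* were lost (adjusted p = 0.562 and 0.531).

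*Itgb6*, an epithelial partner of αv, measured 5.74, 5.44 and 5.79 in NCPs and 5.69 to 6.12 (median 5.79) in total embryo, so its groups overlapped. Its log2 fold change of −0.18 did not pass, while its level-adjusted change was −0.53 (adjusted p = 0.0367). That call was lost without NCP array 2 (−0.42, adjusted p = 0.0741) or without any 1 of the 7 total embryo arrays (adjusted p from 0.0543 to 0.0666). *Itgav*, the αv subunit itself, fell by 1.94 on the log2 scale (adjusted p = 1.23e-05), from 7.74, 8.01 and 8.15 (lowest, median and highest in total embryo) to 5.65, 6.84 and 5.69. NCP array 2 was the highest of the 3 for *Itgav*, and without it the level-adjusted change went from −0.47 (adjusted p = 0.238) to −0.94 (adjusted p = 0.00124). *Itga5*, the α subunit of the main fibronectin receptor, fell by 0.73 (adjusted p = 0.00816), and *Itgb5*, a vitronectin receptor subunit, by 0.89 (adjusted p = 0.0018). Their level-adjusted changes were −0.45 and 0.12, neither past the threshold. *Itgb3*, which binds vitronectin and fibrinogen, did not pass (−0.43, adjusted p = 0.111), but did without NCP array 3 (−0.69, adjusted p = 0.0171). *Itga2b*, its platelet partner, was the only RGD-binding subunit of those measured that was higher, by 0.93 (adjusted p = 0.00289). *Itga2b* measured 7.20, 5.99 and 6.98 in NCPs and 5.67, 5.77 and 6.03 in total embryo, with NCP array 2 inside the total embryo range. Its relative change of 0.58 was the highest of the 36 genes, its level-adjusted change of 0.55 missed the threshold (adjusted p = 0.109), and without NCP array 2 this rose to 0.92 (adjusted p = 0.00158).

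Of the subunits of laminin receptors, *Itga6* was lower and *Itga3*, *Itga7* and *Itgb4* did not pass. *Itga6*, which pairs with β1 or β4, measured 5.54, 6.17 and 6.45 in NCPs against 8.15, 8.28 and 8.60 in total embryo, with no overlap. Its log2 fold change was −2.26 (adjusted p = 7.78e-07), and its level-adjusted change of −0.56 missed the threshold (adjusted p = 0.0633). That value passed without NCP array 2 (−0.72, adjusted p = 0.0218) and without NCP array 3 (−0.68, adjusted p = 0.0402). *Itgb4*, the hemidesmosome subunit, was at 7.28, 5.99 and 7.10 in NCPs and 6.45, 6.57 and 6.65 in total embryo, so that NCP arrays 1 and 3 lay above and NCP array 2 below every total embryo array. Its log2 fold change was 0.25 (adjusted p = 0.355), and 0.66 (adjusted p = 0.00177) without NCP array 2. *Itga3* and *Itga7* changed by −0.12 and 0.29 (95% intervals −0.50 to 0.26 and −0.09 to 0.67).

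Collagen receptor and α4/α9 subunits were spread widely over the 3 NCP arrays. *Itga11* and *Itga10*, which bind fibrillar collagen in mesenchyme and cartilage, were higher by 0.83 (adjusted p = 0.0121) and 0.64 (adjusted p = 0.0251). *Itga11* measured 6.84, 7.12 and 5.75 in NCPs against 5.52, 5.76 and 6.03 in total embryo, with NCP array 3 inside that range. The call of *Itga11* was lost without NCP array 1 (0.69, adjusted p = 0.0553) or NCP array 2 (0.55, adjusted p = 0.0741), and that of *Itga10* without NCP array 1 (0.31, adjusted p = 0.158). *Itga2* ranged from 4.70 to 7.21 over the NCP arrays and fell by 0.97 (adjusted p = 0.0368). Its call was lost without NCP array 2 or NCP array 3 (−0.99 and −0.34, adjusted p = 0.0747 and 0.279), and without total embryo array 2, 4, 5, 6 or 7 (−0.98 to −0.94). *Itga1* did not pass (−0.60, adjusted p = 0.0799), but did without NCP array 3 (−1.06, adjusted p = 0.000952). *Itga9*, a tenascin receptor, measured 5.55, 6.49 and 5.16 in NCPs against 6.54, 7.09 and 7.34, a change of −1.29 (adjusted p = 0.000807) with a level-adjusted change of −0.66 (adjusted p = 0.107), and of −1.07 (adjusted p = 0.00303) without NCP array 2. *Itga4*, a fibronectin and VCAM1 receptor subunit, fell by 0.54 (adjusted p = 0.0486), and this was lost without NCP array 2 (−0.21), NCP array 3 (−0.59) or any 1 of the total embryo arrays (adjusted p from 0.0523 to 0.0814).

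Leukocyte integrin subunits included the 2 largest increases, *Itgad* and *Itgae*, and the 7 genes of these subunits had the lowest mean levels of the 26 integrin genes in total embryo. Of 5 leukocyte α genes 4 were higher and 0 lower (median 0.86; 0 lower at an unadjusted p of 0.05), and both leukocyte β genes were higher. *Itgad*, which encodes a β2 partner of macrophages, measured 6.32, 6.69 and 6.38 in NCPs against 4.97, 5.14 and 5.42 in total embryo. *Itgad* was above the floor on 0 NCP arrays and 1 total embryo array. Among the receptor genes *Itgad* lay at a mean percentile of 89.7 in NCPs and 91.2 in total embryo, so its signal was within background. Its change was 1.32 (adjusted p = 1.32e-05) and its level-adjusted change 0.50 (adjusted p = 0.0437). The level-adjusted call of *Itgad* was lost without NCP array 2 (0.41, adjusted p = 0.0793) and without total embryo array 1, 2, 4, 5, 6 or 7 (adjusted p from 0.0675 to 0.0778). A second *Itgad* probe set changed by 1.14 (adjusted p = 0.00148) and, after level adjustment, by −0.04 (adjusted p = 0.930), so the probe sets differed.

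*Itgae*, which binds E-cadherin, was at 5.75, 7.11 and 6.04 against 4.90, 5.09 and 5.32, a change of 1.22 (adjusted p = 0.000801). *Itgal*, the α subunit of LFA-1, was at 6.06, 5.96 and 6.44 against 5.15, 5.28 and 5.58, a change of 0.86 (adjusted p = 0.000526). Neither gene overlapped between the groups, and neither passed after level adjustment (0.36 and 0.14). *Itgb7*, *Itgax* and *Itgb2* were higher by 0.77, 0.63 and 0.42 (adjusted p = 0.014, 0.0262 and 0.0483), with level-adjusted changes of −0.05, −0.33 and −0.14. *Itgb7* lost its call without NCP array 3 (0.45), *Itgax* without NCP array 1 or 3 (0.37 and 0.55), and *Itgb2* without NCP array 3 (0.27) or total embryo array 1 to 6 (0.36 to 0.44). *Itgam*, the complement receptor subunit, did not pass (0.40, adjusted p = 0.0813) and passed without total embryo array 2 (0.48, adjusted p = 0.0255). *Itgae* was above the floor on 1 NCP array, and *Itgal*, *Itgb7*, *Itgax*, *Itgb2* and *Itgam* on 0. Each of these genes had a lower mean percentile among the receptor genes in NCPs than in total embryo (53.3 against 87.0 for *Itgax*). Other leukocyte genes differed in direction before level adjustment: of the 8 leukocyte and macrophage markers (*Ptprc* and *Csf1r* among them), 0 were higher and 7 lower by limma (median −1.22; 0 higher and 7 lower at an unadjusted p of 0.05), with their mean level at 6.05 to 6.30 on the NCP arrays and 7.27 to 7.71 on the total embryo arrays. The median total embryo level was 7.33 for these markers and 5.12 for the 5 leukocyte α genes, and after level adjustment 0 of the 8 markers were higher and 1, *Fcer1g*, was lower (median −0.23). The receptor genes that define the floor had a median change of 1.66, with 1128 of 1178 higher. Of all probe sets, 39.6% were called higher and 27.5% lower before level adjustment, and 10.2% and 8.35% after it.

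**Figure D3:**
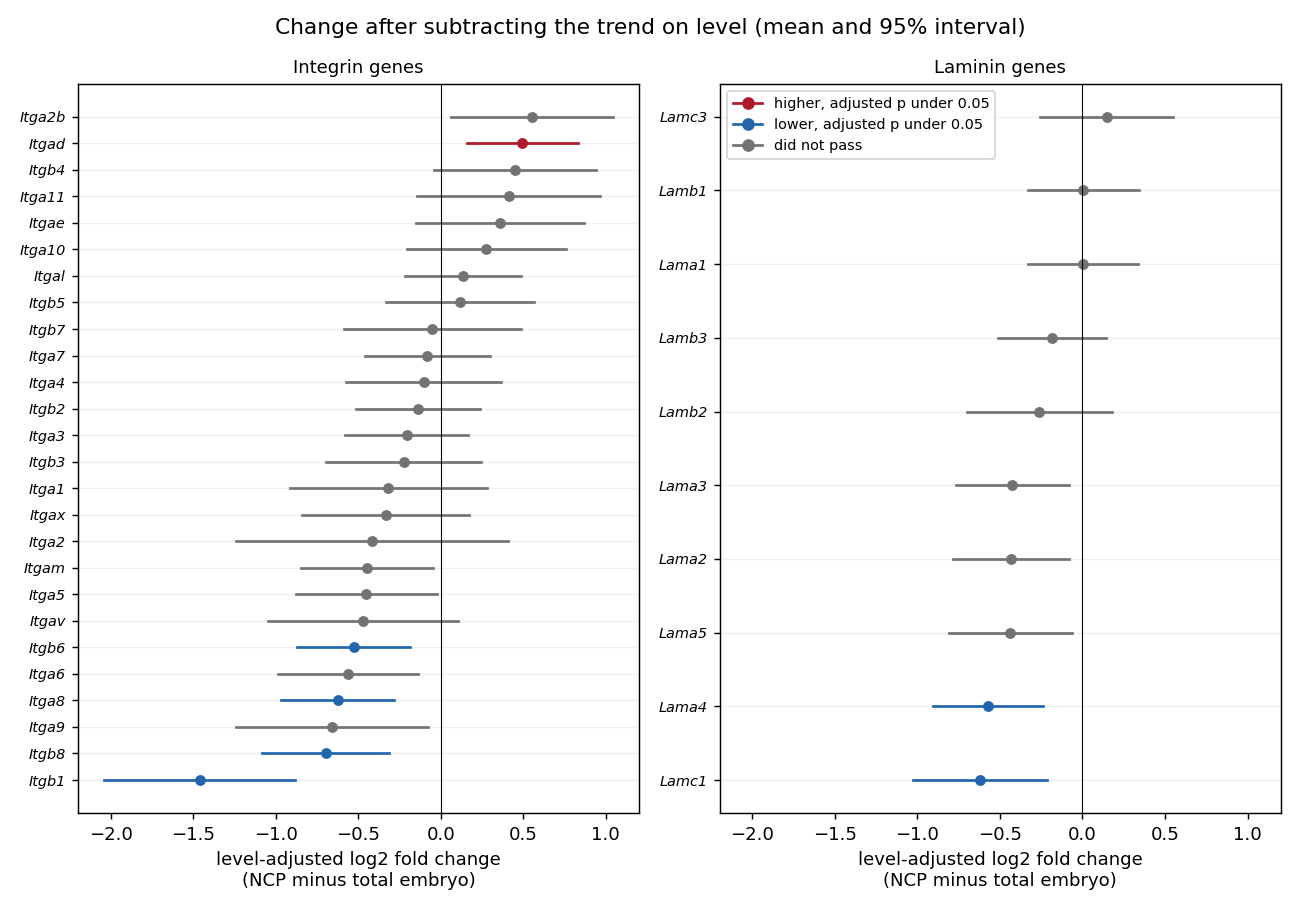
Level-adjusted log2 fold change (NCP minus total embryo, horizontal axis) of each integrin gene (left) and laminin gene (right), as mean and 95% interval from limma over 3 and 7 arrays, in blue where lower and red where higher at an adjusted p of 0.05 and grey where not passed. *Itgb1* at −1.46 lies farthest from 0, and *Lamb1* lies at 0.01.

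The 4 laminin chains with the highest total embryo levels, *Lamc1*, *Lamb1*, *Lama4* and *Lama2*, all fell. *Lamc1*, the γ chain of most laminins, measured 6.52, 5.51 and 6.50 in NCPs and 8.41, 8.78 and 9.03 in total embryo. Its log2 fold change of −2.60 (adjusted p = 8.63e-07) was the largest decrease after *Itgb1*, and its level-adjusted change was −0.62 (adjusted p = 0.037). The level-adjusted call of *Lamc1* was lost without NCP array 2 (−0.43, adjusted p = 0.0982) or without total embryo array 2, 3, 4, 5, 6 or 7 (adjusted p from 0.0584 to 0.0665). *Lama4*, an α chain of vessel and peripheral nerve basement membranes, was at 6.01, 5.85 and 6.11 against 7.80, 8.20 and 8.35, with no overlap. *Lama4* changed by −2.16 (adjusted p = 2.66e-07) and by −0.57 (95% interval −0.90 to −0.24, adjusted p = 0.0214) after level adjustment, with adjusted p = 0.572 when arrays were averaged per RNA sample.

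*Lamb1*, the partner of these chains in laminins of early embryos, lay close to the trend on level, and a difference from them was not tested. It measured 6.85, 6.65 and 6.64 in NCPs and 8.44, 8.55 and 8.75 in total embryo, a fall of 1.86 (adjusted p = 3.61e-07). After level adjustment its change was 0.01 (95% interval −0.33 to 0.34, adjusted p = 0.985). *Lama2*, the α chain of muscle and Schwann cell basement membranes, fell by 1.83 (adjusted p = 1.9e-06) from a total embryo median of 7.85, and its level-adjusted change of −0.43 did not pass (adjusted p = 0.0796), though it did without NCP array 3 (−0.58, adjusted p = 0.0208).

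Chains of epithelial, synaptic and early embryonic laminins were dimmer. *Lama3* and *Lamb2* fell by 0.52 and 0.64 (adjusted p = 0.0115 and 0.015), and the call of *Lamb2* was lost without NCP array 1 (−0.39, adjusted p = 0.0857). *Lama1*, an α chain of early embryonic basement membranes, was the 1 laminin gene that was higher, at 6.04, 5.92 and 6.29 against 5.30, 5.56 and 5.60, a change of 0.59 (adjusted p = 0.0041) that became 0.00 after level adjustment. *Lama5*, *Lamb3* and *Lamc3* did not pass, with changes of −0.02, 0.03 and 0.22 (95% intervals −0.40 to 0.36, −0.31 to 0.36 and −0.17 to 0.62).

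Genes that act beside these receptors and chains were read from 2 further lists, of adhesion complex and of matrix ligand genes. Of 25 integrin adhesion complex genes measured, 3 were higher and 13 lower (median −0.51), against 39.6% and 27.5% of all probe sets. Their median total embryo level was 7.34, against 6.18 over all genes. Level adjustment left 1 higher and 3 lower (median −0.23), against 10.2% and 8.35% of all probe sets. *Fermt2*, which encodes kindlin-2, an activator of β1 integrins, was at 5.69, 5.75 and 4.85 in NCPs against 8.22, 8.71 and 9.07 in total embryo, with a level-adjusted change of −1.34 (adjusted p = 0.00609). *Lims1* (PINCH1) was at 4.97, 5.67 and 5.50 against 7.51, 7.68 and 7.92, with a level-adjusted change of −1.09 (adjusted p = 0.00189). *Ilk* had a level-adjusted change of −0.93 (adjusted p = 0.0363). In each of these genes the groups were apart. With arrays averaged per RNA sample, *Fermt2* and *Lims1* missed the threshold after level adjustment (adjusted p = 0.363 and 0.342). *Parva*, the parvin of the same complex, had a level-adjusted change of −0.42 that did not pass (adjusted p = 0.348).

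*Src*, a kinase activated at adhesions, was the higher gene by 0.62 after level adjustment (adjusted p = 0.0414). The calls of *Ilk* and *Src* were lost without NCP array 2 (−0.66 and 0.37) and without total embryo array 3, 4, 5, 6 or 7, that of *Ilk* also without NCP array 3 (−0.85), and that of *Src* also without total embryo array 1 or 2. *Itgb1bp1*, which encodes a protein that binds the β1 tail, was at 7.75, 6.21 and 8.89 in NCPs, and its level-adjusted change of 1.09 missed the threshold (adjusted p = 0.0541) but was 1.72 without NCP array 2 (adjusted p = 0.00055).

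Of 24 basement membrane and other matrix ligand genes, 4 were higher and 11 lower (median −0.43), against 39.6% and 27.5% of all probe sets. Their median total embryo level was 6.95, against 6.18 over all genes. Level adjustment left 1 higher and 3 lower (median −0.10), against 10.2% and 8.35% of all probe sets. The higher gene was *Dag1*, which encodes dystroglycan, a laminin receptor outside the integrin family. *Dag1* was at 8.24, 7.70 and 8.23 in NCPs and 7.06, 7.90 and 8.16 in total embryo, so the groups overlapped, and it was above the floor on all 3 NCP arrays. Its log2 fold change of 0.35 did not pass (adjusted p = 0.244). The unadjusted change passed at 1.59 with quantile normalization repeated (adjusted p = 0.000243), at 1.98 with cyclic loess (adjusted p = 6.92e-05) and at 0.77 against RNA sample A alone (adjusted p = 0.0461), and was −1.34 with arrays centred on the receptor genes. In the other 20 of 24 settings the unadjusted *Dag1* change did not pass. Its level-adjusted change was 1.58 (95% interval 1.07 to 2.09, adjusted p = 0.000803).

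The level-adjusted *Dag1* value ranged from 1.503 to 1.94 over 16 other settings, and passed in 15 of them, missing with arrays averaged per RNA sample (adjusted p = 0.184). Of the genes lower after level adjustment, *Fn1* (fibronectin) had a change of −1.28 (adjusted p = 0.01), *Tnc* (tenascin-C) of −1.16 (adjusted p = 0.0017) and *Nid1* (nidogen, which joins laminin to collagen IV) of −0.95 (adjusted p = 0.0333). For each of the 3 genes the groups did not overlap, and with arrays averaged per RNA sample *Fn1* and *Tnc* missed the threshold (adjusted p = 0.445 and 0.326). The call of *Nid1* was lost without NCP array 3 (−0.73, adjusted p = 0.108) and without total embryo array 2, 4, 5, 6 or 7 (adjusted p from 0.0531 to 0.0573).

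**Figure D4:**
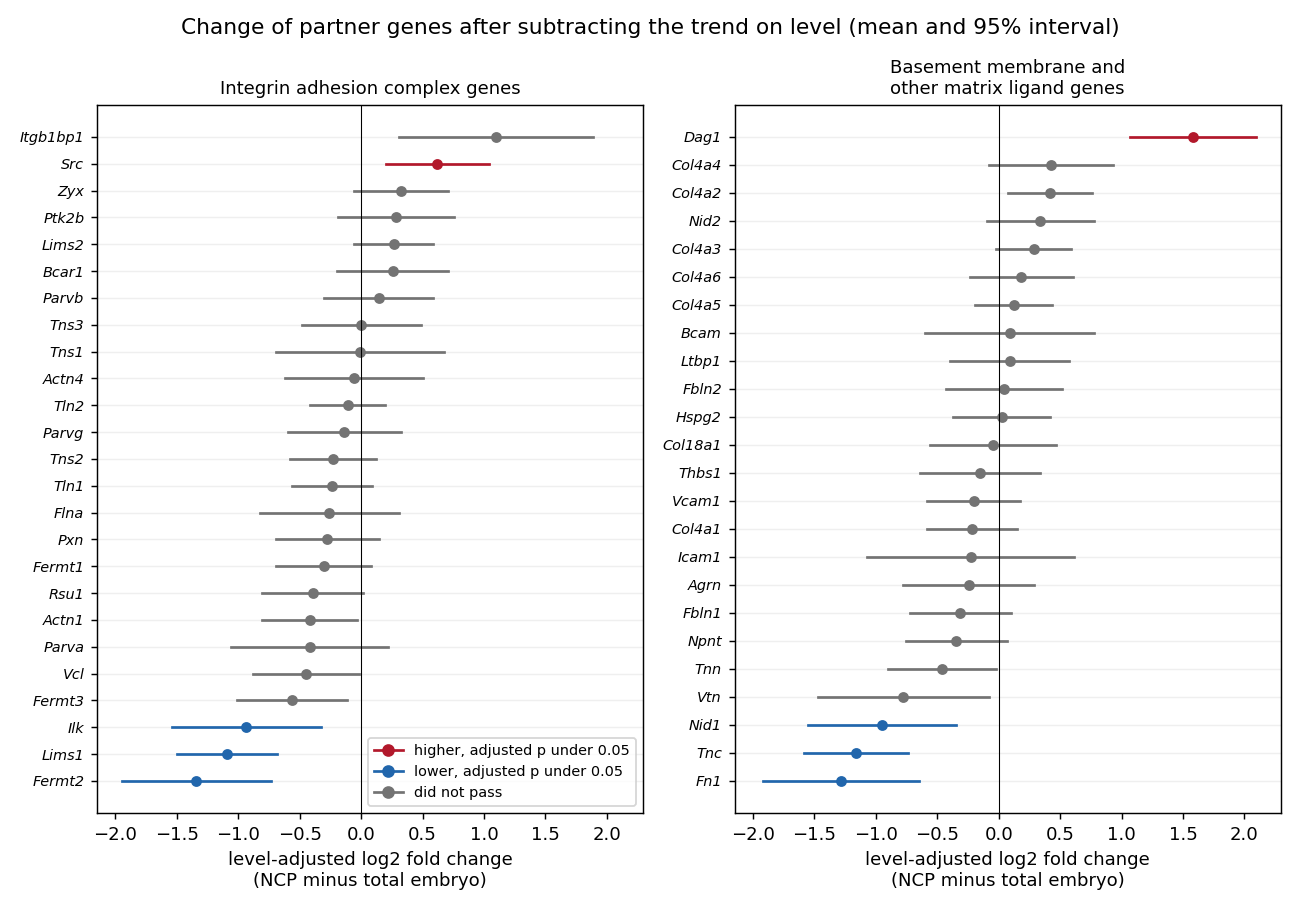
Level-adjusted log2 fold change (NCP minus total embryo, horizontal axis) of 25 integrin adhesion complex genes (left) and 24 basement membrane and other matrix ligand genes (right), as mean and 95% interval from limma over 3 and 7 arrays, colored as for the integrin and laminin genes. *Fermt2* at −1.34 and *Fn1* at −1.28 are the lowest of their lists, and *Dag1* at 1.58 is the highest.

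Markers of other cell types that express these genes also differed between the groups. All 12 smooth muscle and mesenchyme markers were lower, among them *Acta2* and *Postn*, with their mean level at 6.10 to 6.55 on the NCP arrays against 8.48 to 9.06 on the total embryo arrays, and 4 of 12 stayed lower after level adjustment. All 8 striated muscle markers were lower (mean level 6.29 to 6.57 against 10.39 to 10.85), 7 of 8 after level adjustment, *Tnnc2* with the largest change (−3.51). Of 8 epithelium markers 6 were lower, 3 after level adjustment, and of 8 endothelium markers 5 were lower, with 0 called by limma after level adjustment (2 lower at an unadjusted p of 0.05) and 2 called without NCP array 2. Over all probe sets, 39.6% were called higher and 27.5% lower, and 10.2% and 8.35% after level adjustment. Across these 4 lists no marker was called higher in NCPs, before or after level adjustment. Their part in the lower integrin and laminin levels was not tested.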

How the data were processed

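The deposited series table holds log2 values, made by the authors from mouse Gene 1.0 ST arrays with Affymetrix Expression Console 1.1, using RMA (robust Multi-Array Average), which corrects background, normalizes between arrays and summarizes probes. Which arrays were normalized together is not given in the sources used here. Depth does not apply to arrays, and the number of arrays limits the precision.

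Groups came from the sample labels. Replicate numbers follow the order of deposition and pair no samples. After 6568 control probe sets were left out, 28192 of 34760 probe sets were tested with limma 3.58.1 in R 4.3.3 (linear model, moderated test, Benjamini-Hochberg adjustment, adjusted p of 0.05), as in the study. Of these, 21640 had 1 symbol, 1321 several and 5231 none. Platform symbols of all 36 genes matched RefSeq (GRCm38.p6). For level adjustment, each array's difference from the total embryo mean was smoothed on that mean by lowess with a span of 0.3, and the fitted trend was subtracted. The fits were also run on simulated arrays with known changes. Noise there was independent between arrays, so the simulation does not bear on repeat arrays of 1 RNA.

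All 36 genes are named. Array values are given for the 5 genes at each end by fold change and by relative change, and for some others chosen after their values were seen. From the adhesion and ligand lists up to 3 genes at each end by relative change were eligible. *Parva*, *Sdha* and the marker genes named were chosen after their values were seen. Members and lists were chosen with earlier results of these data known. Alternatives changed the normalization, filter, control arrays, handling of repeat arrays, weights, prior, threshold, probe set, trend and neighbours, and left out each array. Figures were drawn with Python 3.11.15 and matplotlib 3.10.9.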

Additional observations from a re-analysis of the deposited data

Results flagged for a closer look

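The *Itgav* level on total embryo array 7 was 7.74, apart from the other 6 arrays, which lay between 7.996 and 8.15. The gap was 0.625 of the whole range of the group. About 1 in 20 groups is marked this way by chance, and 36 genes were examined. Without this array the lower level of *Itgav* in NCPs was kept.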

How the results depend on the processing

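With arrays left out 1 at a time, 7 to 10 genes were higher and 14 to 16 lower (median −0.33 to −0.17), and after level adjustment 0 to 2 were higher and 4 to 11 lower (median −0.29 to −0.18). The median relative change, −0.20, ranged from −0.27 to −0.16, and 0 to 2 genes exceeded the floor on all NCP arrays left. With the floor at the 90th and 75th percentile 1 and 4 genes did, alternatives added after the values were seen.

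The count of higher genes, 10 as reported, was 4 with quantile normalization repeated, 2 with cyclic loess, 4 with dim probe sets filtered (median −0.57), 5 with total embryo RNA sample E alone as control, 4 with RNA sample as a random block, 4 with array weights and 5 at an adjusted p of 0.01. With RNA sample A alone as control 3 were higher and 10 lower, and with arrays averaged per RNA sample 1 and 8. Against the 1 control array of the same day the median change was −0.18. After level adjustment, averaging per RNA sample left 0 higher and 0 lower (0 and 1 unadjusted), RNA sample A alone 0 and 0 (0 and 4 unadjusted), the dim filter 0 higher (1 unadjusted), and a trend on the mean of all 10 arrays gave 2 higher and 12 lower (median −0.34). In the settings that use fewer control arrays, fewer samples entered the fit. For the other settings of this paragraph, calls over all probe sets are not given here.

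With arrays centred on the receptor genes, 23291 of 28192 probe sets were called in either direction. This centring, on genes with a median change of 1.66, left 0 higher (0 unadjusted) and 35 lower of the 36 (median −1.996). It turned the direction of *Itga10* (−1.05), *Itga11* (−0.86), *Itga2b* (−0.76), *Itga7* (−1.40), *Itgad* (−0.37), *Itgae* (−0.47), *Itgal* (−0.83), *Itgam* (−1.29), *Itgax* (−1.06), *Itgb2* (−1.27), *Itgb4* (−1.44), *Itgb7* (−0.92), *Lama1* (−1.10), *Lamb3* (−1.66), *Lamc3* (−1.47), *Src* (−1.06), *Col4a4* (−1.03) and *Dag1* (−1.34). Cyclic loess turned *Itgax* (−0.37), *Itgb2* (−0.14), *Itgb5* (0.10), *Itgb7* (−0.020), *Zyx* (0.38), *Itgb1bp1* (1.32) and *Col4a2* (0.52), and repeated quantile normalization turned *Itgax* (−0.14). The lower level of *Itgb1* passed in all 24 other settings (−5.52 to −1.75, adjusted p up to 0.0234). Its level-adjusted decrease, and those of *Itgb8*, *Itga8* and *Lama4*, passed in 14 of 16 and were lost with arrays averaged per RNA sample and with RNA sample A alone as control; *Itgb6* and *Lamc1* passed in 6 of 16 and *Itgad* in 6 of 15. Apart from the changes given by scaling, the cause of these shifts was not tested. No paired analysis was possible because the replicate numbers follow the order of deposition and pair no samples.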
